A study of Mus musculus with 4 samples.

Results

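Collagens are the triple-helical proteins of the extracellular matrix, and their genes were followed here through the fetal mouse penis. All deposited gene symbols of the form Col, number, a, number were taken (44 genes), and the 4 cartilage genes *Col2a1*, *Col9a1*, *Col9a2* and *Col9a3* were left out. The remaining 40 genes, of 32287 deposited features, fall into 9 families. The rule used symbols only and no measured value, but it was chosen with earlier results of these data known. *Col21a1* was not analysed here.

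Single-cell mRNA was measured in male genitalia at E16.5, the time of urethra closure, with 10x 3' libraries. The 2 DTA- libraries came from control penises (*Nr5a1-Cre*+/+;*RosaDTA*+/f), which carry the toxin allele without the Cre transgene and are labelled WT. In the penises behind the 2 DTA+ libraries, the Cre driven by *Nr5a1* sequences had released expression of diphtheria toxin A at the Rosa locus (*Nr5a1-Cre*Tg/+;*RosaDTA*+/f). Both genotypes share the unrecombined *RosaDTA* allele. The Cre is also active in the testes and adrenals, which are damaged or lost in DTA+ embryos, so local loss of cells and a change in hormones cannot be told apart. The sources used here do not say whether these embryos were given testosterone, or whether each library holds 1 penis or several; p-values measure the spread between libraries.

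Collagen chains are hydroxylated and glycosylated in the endoplasmic reticulum, assemble in threes and are secreted. Fibrillar collagens such as types I, III and V then form cross-linked fibrils, and fibril-associated collagens such as types XII and XIV sit on their surface. Type IV builds the sheets of basement membranes, type VI beaded filaments around cells, type VII the fibrils that anchor epithelium to dermis, and type VIII open networks. Types XIII, XVII, XXIII and XXV stay in the cell membrane, and types XV and XVIII lie close to basement membranes. In the penis, fibroblasts and the cells of the erectile and preputial mesenchyme make most of the fibrillar collagen.

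The deposited values were counts of unique molecular identifiers (UMIs, each marking 1 captured mRNA molecule). The 4 libraries held 11343 to 12580 cells and 50779551 to 73577028 UMIs, the most in DTA- replicate 1. Filters on UMIs, mitochondrial and hemoglobin counts kept 31132 of the 47040 cells, with a median of 4700 and 4077 UMIs per cell in DTA- and 3551 and 3560 in DTA+. The share kept was uneven, at 52.25% and 67.8% in DTA- replicates 1 and 2 and 68.4% and 77.7% in DTA+ replicates 1 and 2. In the same order, 2689, 1298, 1149 and 1160 cells lay at or over the upper UMI limit. Any pair of libraries shared at most 21 barcodes among kept cells. The cells formed 27 clusters, made without the collagens among the clustering genes. From marker lists, 20 clusters were merged into 14 named populations, and each name, such as periurethra-like, stands for a marker profile only. The 7 unnamed clusters are called here by leading genes: Sostdc1/Wnt16 (cluster 0), Irx1/Icam1 (3), Coch/Meox2 (4), Thbd/Ptgis (5), Dsc3/Wnt10a (9), Kera/Nefl (14) and Iyd/Stmn2 (15). Levels are in CPM, the UMI count of a gene normalised to the summed UMI count of the population in 1 library. Changes between genotypes were tested with edgeR's quasi-likelihood test on these sums in the 19 populations with at least 20 cells in every library; a gene is called at an adjusted p under 0.05. With 2 libraries per genotype an exact permutation test of 1 value cannot go below p = 0.333. The smooth muscle-like cluster (127, 195, 34 and 15 cells in DTA- replicates 1 and 2 and DTA+ replicates 1 and 2) and the Iyd/Stmn2 cluster (3, 7, 608 and 372 cells) had too few cells in 1 genotype.

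Free RNA reaches every droplet. In the erythroid cells that the hemoglobin filter removed, which should make no collagen, 27 collagens with at least 1000 UMIs in the kept cells stood at a median of 24.5% of their level there (range 6.64% to 59.9%). Both levels were counted with hemoglobin UMIs left out. Low fibrillar collagen in epithelial populations, and any collagen in blood populations, is therefore not read as expression. The kept red blood cell-like cells held means of 1305 CPM of *Col1a1* and 1444 CPM of *Col1a2*. *Col3a1* was at 220, 812, 206 and 147 CPM in the epithelium-like cells of DTA- replicates 1 and 2 and DTA+ replicates 1 and 2. DTA- replicate 2 stood highest there and also for *Col1a1* (165, 458, 129 and 150 CPM).

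Of the 40 collagens, 34 reached a mean of 10 CPM over the 4 libraries in a tested population, and these 34 had their highest levels in 14 of the 19. The Sostdc1/Wnt16 cluster was the highest population for 8 of them, the Irx1/Icam1 cluster for 4, and the Kera/Nefl, endothelium-like, epithelium-like, neural-like and osteogenic-like populations for 3 each. These levels are given as a description, without a test, since the populations were made from the same cells.

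**Figure D1:**
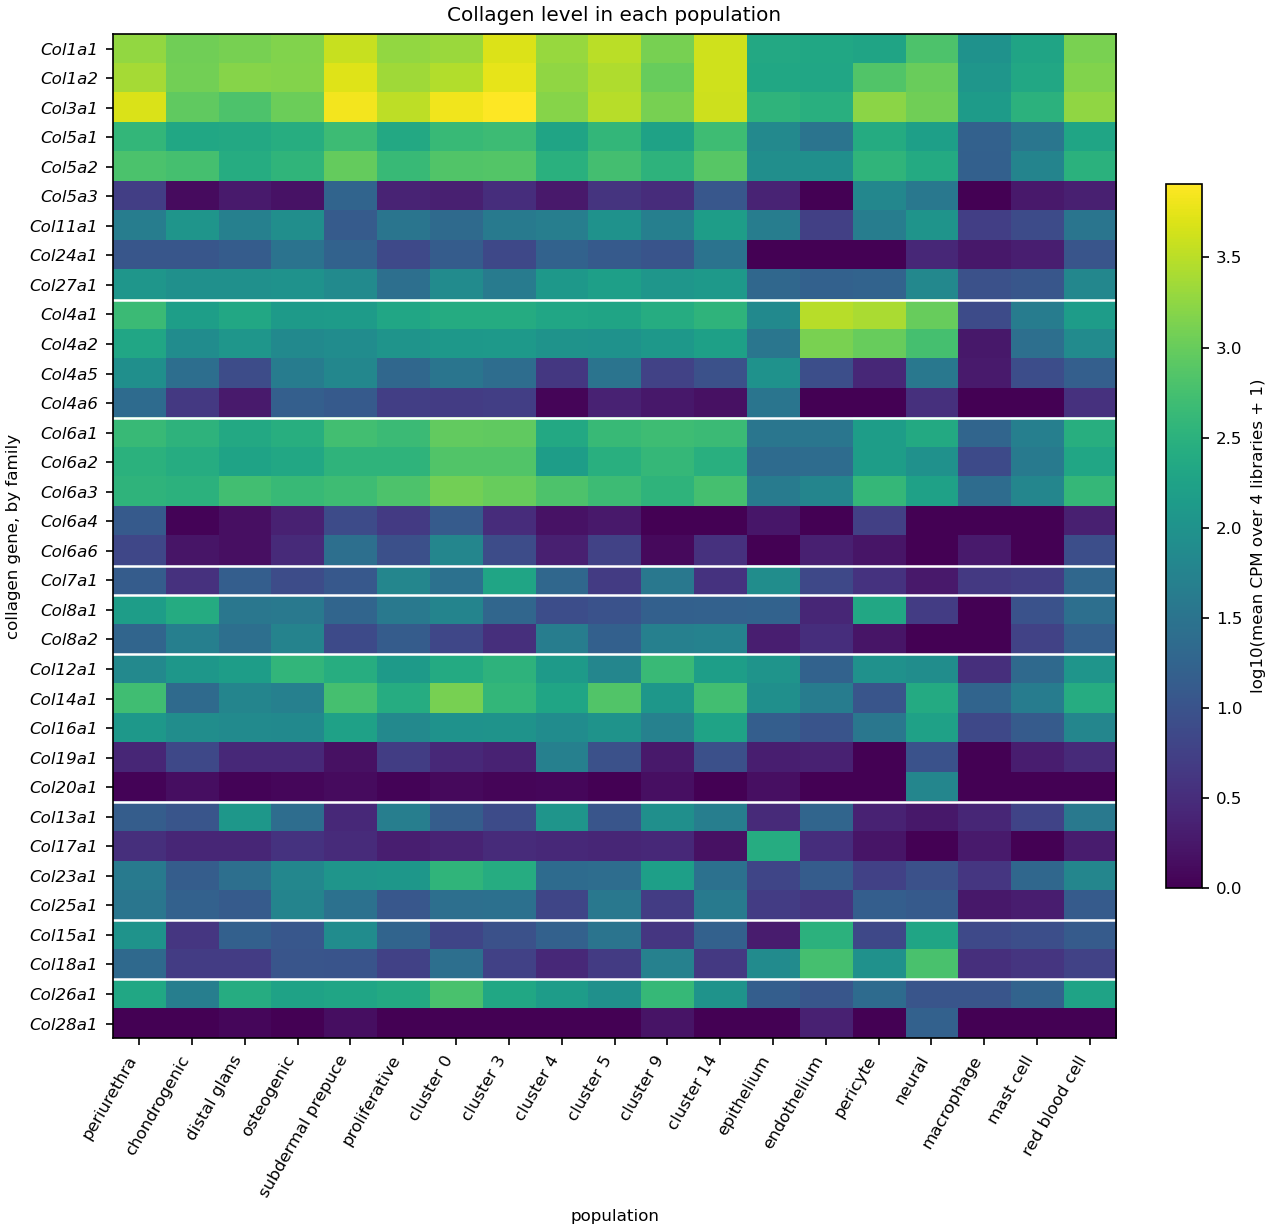
Mean level of the 34 collagens that reached 10 CPM (rows, grouped by family between white lines) in the 19 tested populations (columns), as log10 of the mean CPM over 4 libraries plus 1. Rows are to be read from left to right: *Col4a1* and *Col4a2* peak in endothelium-like, pericyte-like and neural-like cells, *Col17a1* in epithelium-like cells and *Col20a1* in neural-like cells.

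Among fibrillar collagens, which give tissue its tensile strength, *Col1a1*, *Col1a2* and *Col3a1* were highest in the Irx1/Icam1 cluster, with means of 4927, 5708 and 8047 CPM. Their ranges over libraries overlapped those of the next population, the Kera/Nefl cluster for *Col1a1* and the subdermal prepuce-like cells for the other two. *Col5a1*, which helps to set fibril diameter, and *Col11a1*, known from cartilage, were highest in the Kera/Nefl cluster at 492 and 146 CPM. *Col5a2* was highest in subdermal prepuce-like cells at 950 CPM, and *Col27a1* in the Thbd/Ptgis cluster at 162 CPM. *Col5a3* stood at 72.8, 85.8, 46.3 and 49.6 CPM in pericyte-like cells, against a mean of 35.3 CPM in neural-like cells. *Col24a1*, known from forming bone, was highest in osteogenic-like cells at 30.1 CPM and nearly level in the Kera/Nefl cluster at 29.2 CPM.

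The fibril-associated collagens divided the mesenchyme. *Col14a1* was highest in the Sostdc1/Wnt16 cluster, at 1050 to 1469 CPM, a range that did not overlap that of the next population, the Thbd/Ptgis cluster (542 to 1000 CPM). *Col12a1* had its highest mean over both genotypes in the Dsc3/Wnt10a cluster (265 to 650 CPM) and then in osteogenic-like cells (212 to 525 CPM), with overlapping ranges. This order depends on the genotype. Subdermal prepuce-like cells joined with the Iyd/Stmn2 cluster held 230 and 537 CPM in DTA- and 150 and 142 CPM in DTA+. *Col16a1* differed little between the Kera/Nefl cluster (186 CPM) and neural-like cells (170 CPM). *Col19a1* had its highest level in the Coch/Meox2 cluster, with a mean of 48.4 CPM there and 8.57 CPM in neural-like cells, the next population. *Col20a1* stood at 41.0, 85.4, 83.4 and 34.8 CPM in neural-like cells and had means of 0 to 0.437 CPM in the other tested populations, at most 1 UMI in the next, epithelium-like cells.

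In the other families some collagens stood apart at 1 site and others were shared between sites. *Col17a1*, the hemidesmosome collagen of basal epithelium, stood at 234, 307, 244 and 247 CPM in epithelium-like cells and at 2.67 CPM in osteogenic-like cells, the next population. *Col7a1*, the anchoring fibril chain, was highest not in epithelium-like cells (81.7 CPM) but in the Irx1/Icam1 cluster (197 CPM), with ranges of 58.7 to 103 and 149 to 256 CPM. *Col15a1* was highest in endothelium-like cells at 327 CPM, above neural-like cells at 194 CPM without overlap, and *Col18a1*, the source of endostatin, in neural-like cells at 616 and endothelium-like cells at 567 CPM, with overlap. *Col28a1*, known from Schwann cells, had 8.1996, 13.7, 26.1 and 12.7 CPM in neural-like cells. *Col26a1*, first described in testis and ovary, reached 614 CPM in the Sostdc1/Wnt16 cluster and 414 CPM in the Dsc3/Wnt10a cluster, without overlap. *Col13a1* had similar means in distal glans-like cells (115 CPM) and the Coch/Meox2 cluster (106 CPM, range 83.6 to 128), but the 2 distal glans-like clusters differed. The cluster led by *Tac1* and *Tfap2c* held 172, 159, 173 and 255 CPM in DTA- replicates 1 and 2 and DTA+ replicates 1 and 2. The cluster led by *Msx2* and *Htr3b* held 69.6, 70.1, 59.1 and 66.5 CPM in the same order. *Col25a1* was highest in osteogenic-like cells at 56.9 CPM, above the Kera/Nefl cluster at 38.9 CPM.

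For type VI collagen the main chains and *Col6a6* were highest in the Sostdc1/Wnt16 cluster, at different levels, and *Col6a4* was nearly level between it and periurethra-like cells. *Col6a1*, *Col6a2* and *Col6a3* had means of 939, 709 and 1200 CPM there and overlapped the Irx1/Icam1 cluster. *Col6a6* and *Col6a4*, whose chains can take the place of the alpha3 chain, had means of 61.9 and 12.2 CPM and overlapped the next populations, subdermal prepuce-like (26.1 CPM) and periurethra-like cells (11.8 CPM). For *Col6a4* the ranges were 1.10 to 36.7 CPM and 2.59 to 23.3 CPM. The periurethra-like cluster led by *Mup17* and *Epha3* held 16.9 and 32.6 CPM of it in DTA- and 6.88 and 22.3 CPM in DTA+. *Col6a5* stayed at or under 0.994 CPM in every tested population, with its highest mean in subdermal prepuce-like cells. Type VIII chains differed from each other: *Col8a1* had its highest means in chondrogenic-like cells (251 CPM) and pericyte-like cells (216 CPM), *Col8a2* in osteogenic-like cells (54.9 CPM) and the Kera/Nefl cluster (53.2 CPM). Both pairs overlapped in range, for *Col8a1* with 133 to 397 and 146 to 379 CPM. In the DTA- libraries alone, *Col8a1* was lower in chondrogenic-like than in pericyte-like cells.

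*Col23a1*, a membrane collagen whose outer part can be shed, was highest in the Sostdc1/Wnt16 cluster, at 330, 302, 375 and 418 CPM in DTA- replicates 1 and 2 and DTA+ replicates 1 and 2. The Irx1/Icam1 cluster followed with 245, 241, 274 and 297 CPM, below every library of the first. Smooth muscle-like cells held 160, 128, 167 and 219 CPM, below the Irx1/Icam1 cluster in every library, and overlapped the Dsc3/Wnt10a cluster (158, 138, 246 and 105 CPM), which in turn overlapped proliferative cells and subdermal prepuce-like cells. In the Iyd/Stmn2 cluster, the 2 DTA+ libraries gave 186 and 240 CPM from 457 and 396 UMIs, and the 3 and 7 DTA- cells gave 12 and 1 UMIs. Means were 62.7 CPM in osteogenic-like, 61.5 in red blood cell-like, 38.3 in periurethra-like, 27.3 in Kera/Nefl, 25.3 in distal glans-like, 23.9 in Thbd/Ptgis, 22.5 in Coch/Meox2, 19.2 in mast cell-like, 13.1 in chondrogenic-like and 12.6 in endothelium-like cells. Neural-like, epithelium-like, pericyte-like and macrophage-like cells had 8.40, 5.45, 4.66 and 3.21 CPM. The red blood cell-like value is not read as expression.

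*Col6a6* had a narrower site. It stood at 57.8, 121, 40.4 and 28.3 CPM in the Sostdc1/Wnt16 cluster, at 29.7, 53.8, 12.9 and 7.83 CPM in subdermal prepuce-like cells and at 24.2, 32.6, 6.17 and 13.7 CPM in smooth muscle-like cells, the last from 16, 28, 1 and 1 UMIs. These 3 ranges overlapped. The next levels were 7.93 CPM in proliferative, 7.66 in red blood cell-like, 7.13 in Irx1/Icam1, 5.88 in periurethra-like, 4.97 in Thbd/Ptgis and 2.58 CPM in Kera/Nefl cells. Osteogenic-like, Coch/Meox2, endothelium-like, macrophage-like, pericyte-like, chondrogenic-like, Iyd/Stmn2, distal glans-like and Dsc3/Wnt10a cells had 1.89, 1.24, 1.17, 0.943, 0.670, 0.642, 0.456, 0.438 and 0.253 CPM. No UMI was counted in epithelium-like, mast cell-like or neural-like cells. Here too the red blood cell-like value is not read as expression.

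Type IV collagen genes lie in head-to-head pairs, and the levels of the clearest pair ran in parallel across populations. *Col4a1* (chromosome 8, 11198423 to 11312826, minus strand, GRCm38) and *Col4a2* (chromosome 8, 11312805 to 11449287, plus strand) start 21 bases apart. The RefSeq promoters (GRCm38.p6, 250 bases before to 50 after each start) therefore overlap by 78 bases and are shown because both genes are read from this stretch in opposite directions. Capitals mark any of 4 motifs on either strand. The GC box was searched as GGGCGG. The CCAAT box has the letters of its name. The TATA box was searched as TATAAA. The steroid receptor half-site was searched as AGAACA.
Col4a1 chr8:11312777-11313076 (-): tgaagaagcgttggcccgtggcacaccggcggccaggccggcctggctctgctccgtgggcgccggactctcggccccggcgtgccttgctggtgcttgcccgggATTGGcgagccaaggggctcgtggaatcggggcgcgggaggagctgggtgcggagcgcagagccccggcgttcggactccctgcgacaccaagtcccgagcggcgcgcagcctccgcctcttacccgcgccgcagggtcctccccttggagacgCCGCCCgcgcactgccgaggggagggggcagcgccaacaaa
Col4a2 chr8:11312555-11312854 (+): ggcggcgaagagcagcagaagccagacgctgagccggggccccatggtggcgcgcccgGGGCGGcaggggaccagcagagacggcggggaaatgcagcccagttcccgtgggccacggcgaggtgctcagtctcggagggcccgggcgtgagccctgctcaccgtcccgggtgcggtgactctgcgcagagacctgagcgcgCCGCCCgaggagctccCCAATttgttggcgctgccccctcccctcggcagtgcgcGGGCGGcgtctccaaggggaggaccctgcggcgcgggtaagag

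*Col4a1* stood at 2400, 3293, 3626 and 2977 CPM in endothelium-like cells and *Col4a2* at 1063, 1416, 1679 and 1184 CPM. Pericyte-like cells held 2766, 2839, 2706 and 2111 CPM of *Col4a1*, and neural-like cells a mean of 1006 CPM. In 18 populations with enough UMIs the ratio of *Col4a1* to *Col4a2* UMIs lay between 1.67 (mast cell-like) and 2.66 (pericyte-like), and the rank correlation of their means was 0.996, a description over populations that share libraries. *Col4a5* and *Col4a6*, on the X chromosome with starts 1309 bases apart, formed a second pattern. *Col4a5* was at 81.2, 103, 97.8 and 109 CPM in epithelium-like and at 74.1, 122, 83.5 and 66.9 CPM in periurethra-like cells, and *Col4a6* was also highest in both, at means of 32.4 and 22.4 CPM. The periurethra-like cluster led by *Mup17* and *Epha3* held 122, 197, 160 and 124 CPM of *Col4a5*, above every epithelium-like library, and 32.1, 55.4, 48.2 and 35.7 CPM of *Col4a6*. The other periurethra-like cluster, with *Sall3* and *Foxl2*, held 15.1, 33.3, 50.5 and 15.0 CPM of *Col4a5*. The ratio of *Col4a5* to *Col4a6* ranged more widely, from 3 in epithelium-like to 7.21 in chondrogenic-like cells over 8 populations. *Col4a3* and *Col4a4*, known from kidney, had means of at most 0.855 and 4.11 CPM in the tested populations.

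**Figure D2:**
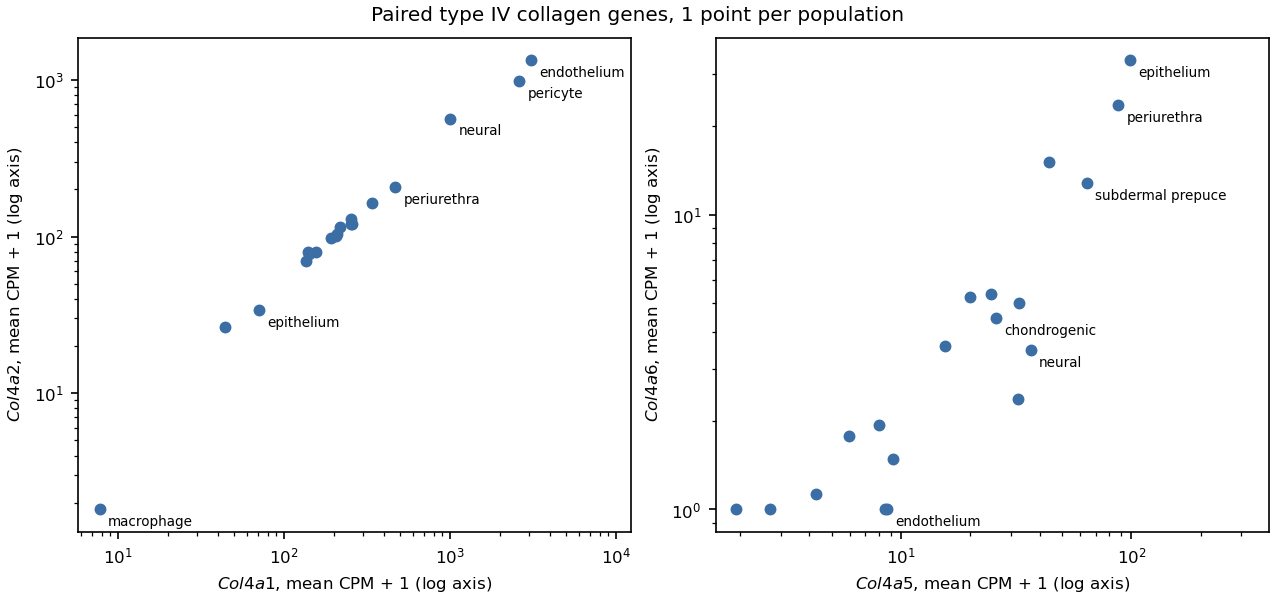
Mean CPM plus 1 over 4 libraries of *Col4a2* against *Col4a1* (left) and of *Col4a6* against *Col4a5* (right), both axes log, with 1 point for each of 19 tested populations and some points named. Points of the first pair lie close to a line, with endothelium-like cells at the top, and points of the second pair scatter more, with epithelium-like and periurethra-like cells at the top.

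The genotype comparison asks which collagens differ in the penis once *Nr5a1-Cre* cells are ablated. Over all cells of a library, 37 collagens passed the filter on low counts and edgeR called 0 of them at an adjusted p under 0.05, where 0.488% of all genes tested were called. At an unadjusted p under 0.05, 7 of the 37 collagens passed, and 2409 of all 15977 genes tested. DESeq2 called 5 collagens at its adjusted p, and its share of all genes is not given here. The median log2 change of the 37 collagens was -0.10, and that of all genes tested -0.00274.

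The largest changes over all cells were in late type VI chains, and they varied with the library left out. *Col6a6* was at 10.5, 29.4, 4.64 and 4.08 CPM in DTA- replicates 1 and 2 and DTA+ replicates 1 and 2, so that the genotypes did not overlap and the DTA- libraries differed. Its log2 change was -2.27 ± 0.46 (SE; edgeR adjusted p = 0.102). It was called when DTA- replicate 1, DTA+ replicate 1 or DTA+ replicate 2 was left out (edgeR adjusted p = 0.0100, 0.00140 and 0.0172) and not without DTA- replicate 2 (0.0561). *Col6a4* had 3.55, 11.1, 0.606 and 1.36 CPM and a log2 change of -2.96 ± 0.61 (edgeR adjusted p = 0.108). It was called without the same 3 libraries (edgeR adjusted p = 0.0370, 0.00352 and 0.00199) and not without DTA- replicate 2 (0.0843). *Col15a1* (0.89, edgeR adjusted p = 0.0923), *Col8a1* (0.92, 0.133) and *Col19a1* (1.08, 0.138) had positive log2 changes. *Col15a1* and *Col19a1* were called without DTA+ replicate 2 (edgeR adjusted p = 0.0446 and 0.0218), *Col8a1* without DTA- replicate 2 (0.0324) and *Col3a1* without DTA+ replicate 1 (0.0352). *Col23a1* had 87.9, 111, 126 and 98.9 CPM, with overlapping genotypes and a log2 change of 0.10 ± 0.17 (edgeR adjusted p = 0.806). In such sums, fewer cells of a type and less RNA per cell cannot be told apart.

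Within populations, 415 collagen tests gave 35 calls, 22 higher and 13 lower in DTA+, spread over 17 collagens and 10 of the 19 populations. In these 10 the share of all genes called ran from 0.263% in the Dsc3/Wnt10a to 11.8% in the Thbd/Ptgis cluster. It is given below beside the collagen count of each population. *Col1a1*, *Col1a2* and *Col3a1* passed the filter in all 19 populations, and *Col4a3*, *Col4a4*, *Col6a5*, *Col10a1*, *Col11a2*, *Col22a1* and *Col28a1* in none. In 9 populations no collagen was called by edgeR, nor by DESeq2, and 26 of 147 tests passed at an unadjusted p under 0.05. The Irx1/Icam1 cluster gave 10 of 26 (748 of 10547 genes) and red blood cell-like cells 4 of 22 (543 of 5944). Epithelium-like cells gave 3 of 18 (224 of 4937) and pericyte-like cells 3 of 16 (243 of 4324). The Kera/Nefl cluster gave 2 of 24 (721 of 8585) and endothelium-like cells 2 of 11 (286 of 5655). Mast cell-like cells gave 1 of 7 (148 of 3103), neural-like 1 of 20 (213 of 4762) and macrophage-like 0 of 3 (171 of 4053). The share of all genes called was 0.948% in the Irx1/Icam1 cluster, 0.687% in the Kera/Nefl cluster, 0.505% in red blood cell-like, 0.162% in pericyte-like, 0.105% in neural-like and 0.0177% in endothelium-like cells, and 0% in epithelium-like, macrophage-like and mast cell-like cells. Median UMIs per cell were lower in both DTA+ libraries than in both DTA- libraries in several mesenchymal populations, and 26 of the 35 calls could also be fitted with cells thinned to 1000 UMIs, of which 17 were kept.

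**Figure D3:**
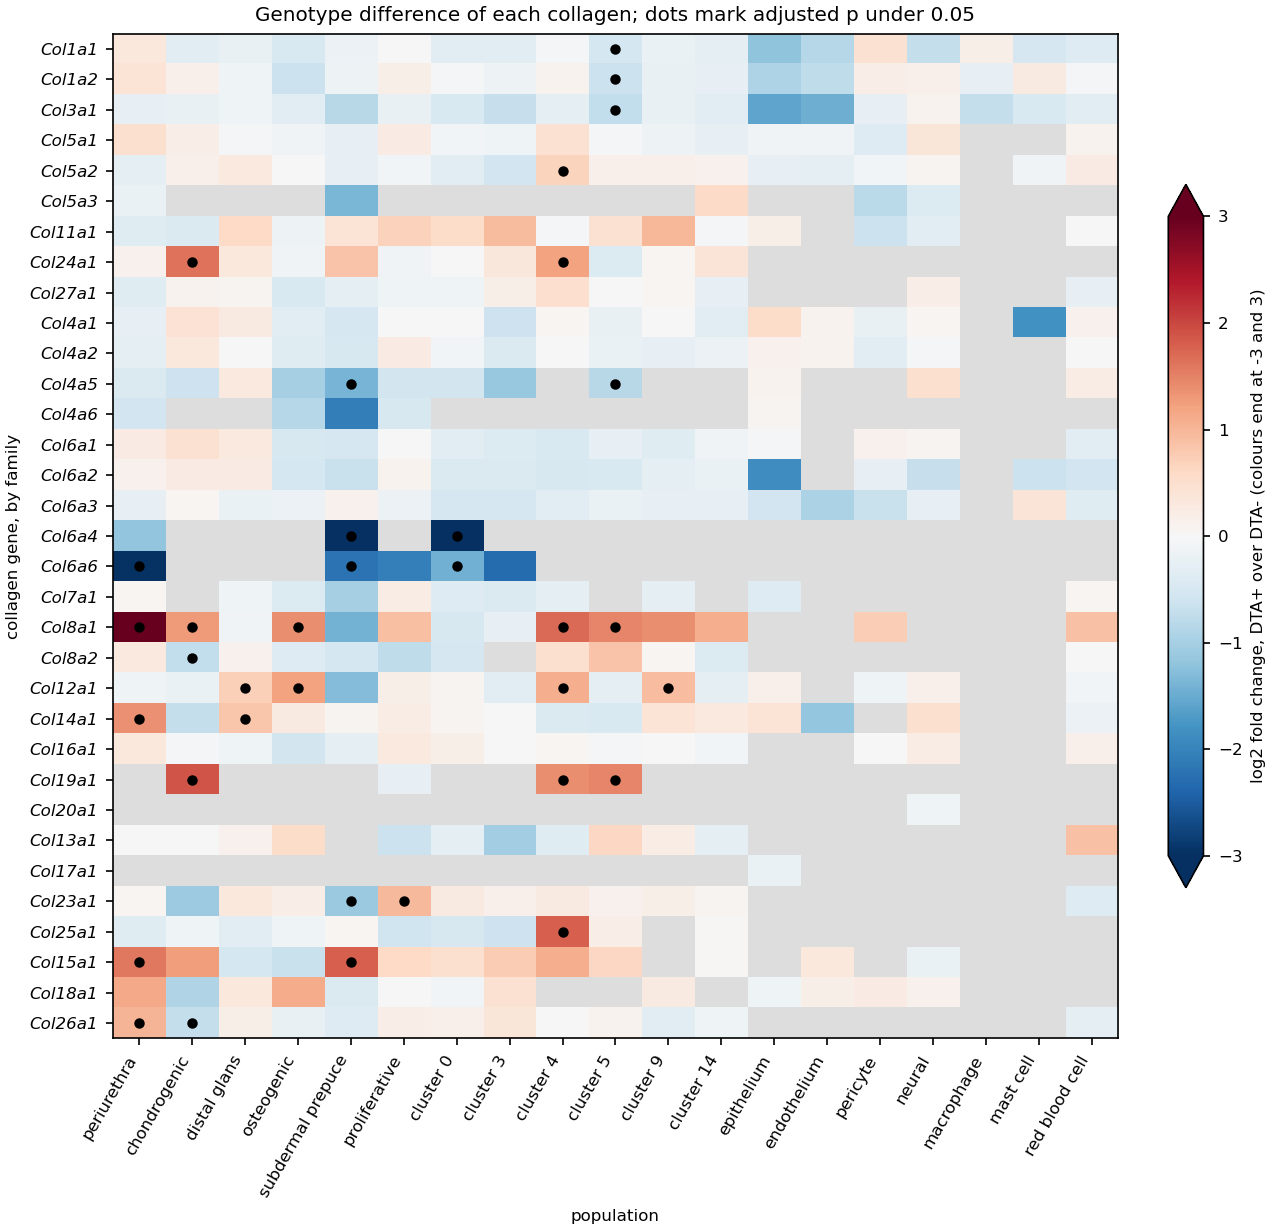
Log2 fold change of DTA+ over DTA- (red higher, blue lower in DTA+, colours ending at -3 and 3) for each collagen (rows, by family) in each tested population (columns). Grey cells did not pass the filter on low counts and black dots mark the 35 calls at an edgeR adjusted p under 0.05; *Col8a1* has 5 dots, all higher, and *Col6a6* has 3, all lower.

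*Col8a1*, a short chain of network-forming collagen, was called higher in DTA+ in 5 of the 14 tested populations in which it passed the filter, the most of any collagen, and lower in none of them. The calls in the Coch/Meox2 and Thbd/Ptgis clusters rested on few UMIs. Erythroid cells removed by the hemoglobin filter held 4.44 to 18.1 CPM of *Col8a1* over the libraries, counted with hemoglobin UMIs left out. The part of free RNA in these calls was not tested. When subdermal prepuce-like cells were joined with the Iyd/Stmn2 cluster, a comparison added with the data in view, *Col8a1* was lower (19.8 and 31.6 against 10.8 and 12.3 CPM, log2 change -1.29, edgeR adjusted p = 0.038). In periurethra-like cells it was at 28.5 and 29.0 CPM in DTA- and 339 and 201 CPM in DTA+. Both DTA+ libraries lay far above both DTA- libraries, with a log2 change of 3.17 ± 0.25 (SE; edgeR adjusted p = 0.000145), and the call held under all 15 alternatives (edgeR or DESeq2 adjusted p at most 0.00665, log2 change 2.77 to 3.49). Both clusters that make up the class showed it, with log2 changes of 3.25 in the Sall3/Foxl2 cluster and 2.52 in the Mup17/Epha3 cluster (edgeR adjusted p = 0.00027 and 6.05e-09). Of the 30 collagens that passed in periurethra-like cells 5 were called, against 3.69% of all genes.

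The RefSeq promoters of *Col8a1* and *Col23a1* are shown with the same motifs in capitals, since *Col8a1* (chromosome 16, 57624258 to 57754737, minus strand, GRCm38) was called most often and *Col23a1* (chromosome 11, 51289920 to 51583918, plus strand) is highest where *Col6a6* is. *Col8a1* holds the GC box 4 times and *Col23a1* 1 time, and neither holds the other 3 motifs.
Col8a1 chr16:57754688-57754987 (-): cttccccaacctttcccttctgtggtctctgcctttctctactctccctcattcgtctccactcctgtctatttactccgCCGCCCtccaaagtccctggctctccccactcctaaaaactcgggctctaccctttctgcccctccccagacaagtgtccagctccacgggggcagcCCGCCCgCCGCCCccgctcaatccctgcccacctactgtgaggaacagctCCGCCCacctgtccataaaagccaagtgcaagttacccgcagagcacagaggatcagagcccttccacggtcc
Col23a1 chr11:51289670-51289969 (+): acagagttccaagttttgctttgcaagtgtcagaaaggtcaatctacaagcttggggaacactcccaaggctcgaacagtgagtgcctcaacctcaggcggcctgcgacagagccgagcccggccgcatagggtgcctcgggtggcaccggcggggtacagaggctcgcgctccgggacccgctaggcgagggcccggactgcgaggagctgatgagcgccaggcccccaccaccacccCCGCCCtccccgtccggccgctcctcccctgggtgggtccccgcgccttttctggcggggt

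In chondrogenic-like cells *Col8a1* was at 133 and 143 CPM in DTA- and 331 and 397 CPM in DTA+, again without overlap (log2 change 1.28 ± 0.16, edgeR adjusted p = 0.000399). Also called there were *Col19a1* (log2 change 1.89, 5 and 6 against 23 and 28 UMIs) and the bone-type fibrillar chain *Col24a1* (1.62, 13 and 8 against 50 and 30 UMIs), higher in DTA+. *Col26a1* (-0.71, 56.6 and 54.9 against 31.3 and 42.2 CPM) and *Col8a2* (-0.74, 57.5 and 59.2 against 34.9 and 40.7 CPM) were lower. The count was 5 of 26 collagens, against 7.52% of all genes. None of the 5 was called without DTA- replicate 1 (edgeR adjusted p = 0.337 to 0.377) or without DTA- replicate 2 (0.217 to 0.295). *Col24a1*, *Col26a1* and *Col8a2* were not called without DTA+ replicate 1 (0.257, 0.479 and 0.321), nor *Col19a1* and *Col8a2* without DTA+ replicate 2 (0.144 and 0.0723). With no filter on low counts none of the 5 was called (0.244 to 0.281). Median UMIs per cell were 5116 and 4292.5 in DTA- and 3083 and 3362 in DTA+. With cells thinned, *Col26a1* and *Col8a2* were not called (edgeR adjusted p = 0.0719 and 0.138), and *Col24a1*, *Col26a1* and *Col8a2* were not called by DESeq2 (0.115, 0.172 and 0.123).

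Osteogenic-like cells join 2 clusters that share the markers *Dlx5*, *Dlx6* and *Alpl*, and *Runx2* was enriched in 1 of them. There 2 of 27 collagens were called, against 1.47% of all genes. *Col12a1*, a flexible bridge between fibrils, was at 212 and 236 CPM in DTA- and 525 and 501 CPM in DTA+ (log2 change 1.197 ± 0.14, edgeR adjusted p = 0.00102). The libraries of each genotype lay close together and far from the other genotype. With no upper limit on UMIs per cell, and cells clustered again, the change was 0.54 (adjusted p = 0.214). *Col8a1* was at 22.4 and 18.8 against 40.3 and 65.0 CPM (1.38 ± 0.27, edgeR adjusted p = 0.0198). Without DTA+ replicate 2 it was 0.93 (0.223). Of its 2 clusters, the one led by *Cpm* and *Dlx5* gave 1.55 for *Col12a1* and 1.96 for *Col8a1* (edgeR adjusted p = 1.69e-09 and 5.39e-07), with *Col1a1* and *Col1a2* lower by log2 changes of -0.52 and -0.98 (0.0218 and 7.85e-06), the 4 collagens called there against 5.03% of all genes. In the other, led by *Prss35*, *Col12a1* had a change of 0.56 (edgeR adjusted p = 0.339), *Col8a1* did not pass the filter and no collagen was called at an adjusted p under 0.05, where 1.04% of all genes were.

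**Figure D4:**
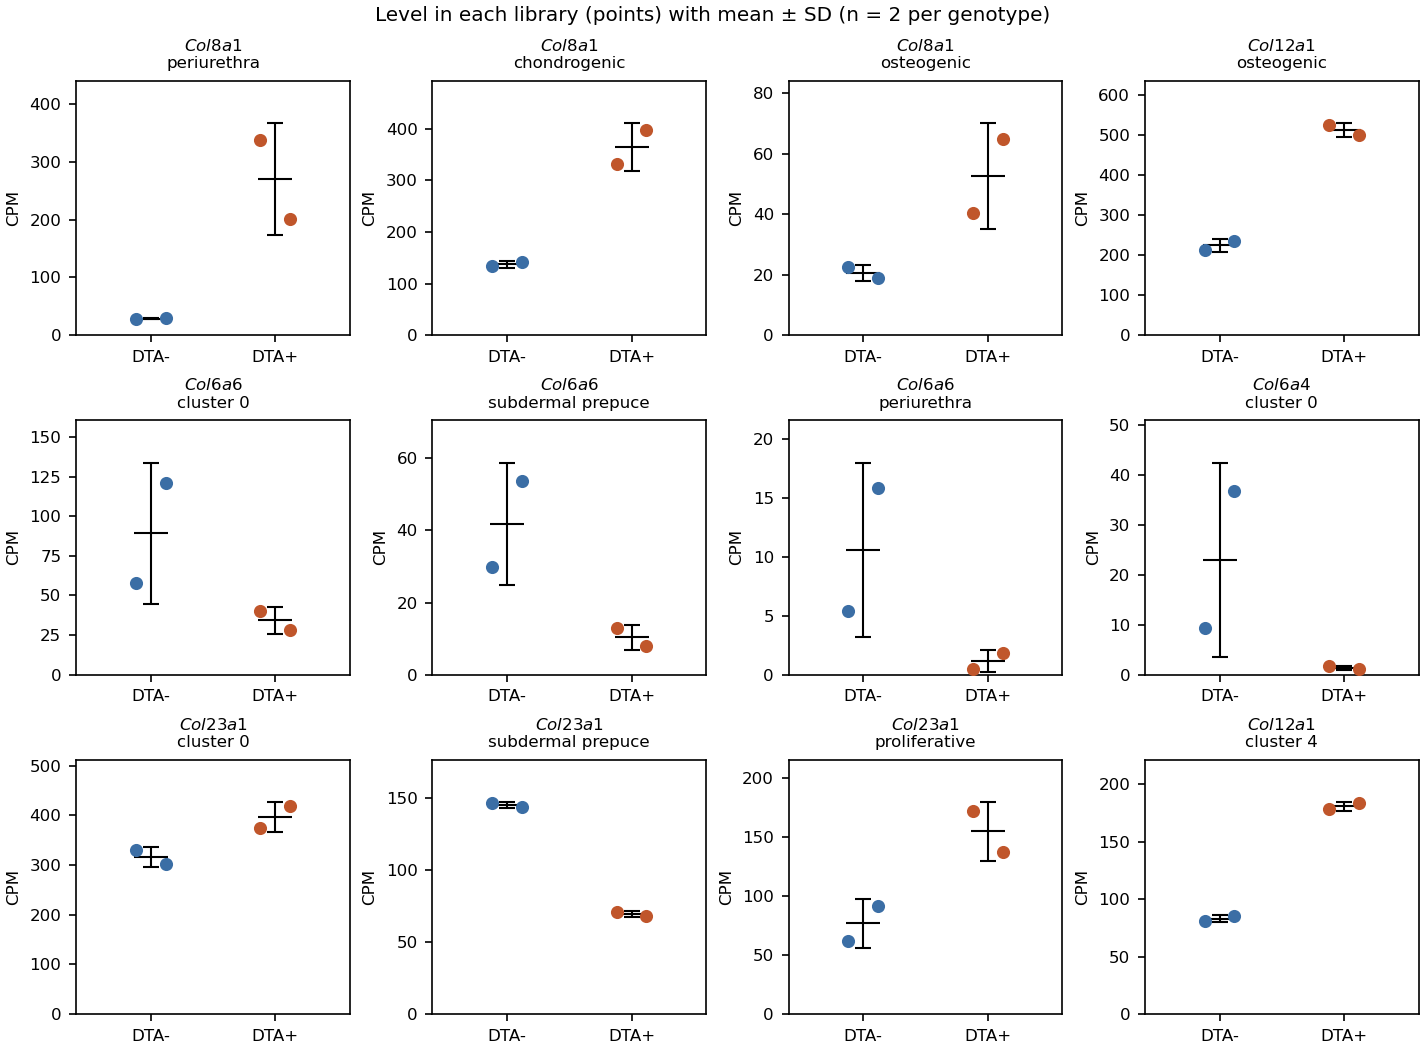
Level in CPM of *Col8a1*, *Col12a1*, *Col6a6*, *Col6a4* and *Col23a1* in named populations, 1 point per library (blue DTA-, red DTA+), with horizontal bars at the mean and error bars of ± SD (n = 2 libraries per genotype), each axis from 0. The genotypes do not overlap in any panel; *Col23a1* in cluster 0 (Sostdc1/Wnt16) is the panel that was not called.

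The other collagens called higher in periurethra-like cells were *Col14a1*, *Col15a1* and *Col26a1*. *Col14a1*, which limits fibril growth, was at 251 and 295 CPM in DTA- and 920 and 554 CPM in DTA+ (log2 change 1.38 ± 0.22, edgeR adjusted p = 0.00606). *Col15a1* was at 34.2 and 62.8 against 196 and 107 CPM (1.59 ± 0.31, 0.0193), and *Col26a1* at 144 and 127 against 338 and 238 CPM (1.02 ± 0.18, 0.0126). All 3 were higher in both DTA+ than in both DTA- libraries. DTA+ replicate 1 was the highest library for each. *Col14a1* and *Col26a1* were not called without DTA- replicate 1 (edgeR adjusted p = 0.126 and 0.0963) or DTA- replicate 2 (0.0545 and 0.141), and *Col15a1* was not called without DTA- replicate 1 (0.191) or by DESeq2 (0.178). By cluster, the *Col14a1* change was 3.15 in the Sall3/Foxl2 and 0.77 in the Mup17/Epha3 cluster (edgeR adjusted p = 0.00469 and 0.00379). That of *Col15a1* was 1.26 and 1.63 (0.0492 and 0.00144), and that of *Col26a1* 0.74, not called, and 1.03 (0.0657 and 0.00127). The Sall3/Foxl2 cluster had 271 and 273 cells in DTA- and 358 and 459 in DTA+. The Mup17/Epha3 cluster had 340 and 295 against 178 and 415, so the make-up of the class differed between libraries.

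*Col6a6* was the 1 collagen called lower in periurethra-like cells. It had 16 and 36 UMIs (5.37 and 15.8 CPM) in DTA- and 1 and 6 UMIs (0.519 and 1.82 CPM) in DTA+. Erythroid cells removed by the hemoglobin filter held 0 to 8.25 CPM of *Col6a6* over the libraries (8 UMIs), or 33.9% of its level in kept cells. These erythroid levels were counted with hemoglobin UMIs left out, unlike the CPM of populations. No UMI of *Col6a6* was counted in epithelium-like, mast cell-like or neural-like cells. The part of free RNA in the periurethra-like difference was not tested. The log2 change was -2.96 ± 0.69 (edgeR adjusted p = 0.0436), and without DTA- replicate 2 it was -2.06 (0.362). In the Sostdc1/Wnt16 cluster, its main site, *Col6a6* was at 57.8 and 121 CPM in DTA- and 40.4 and 28.3 CPM in DTA+ (-1.44 ± 0.29, edgeR adjusted p = 0.0131). The genotypes did not overlap, but the DTA- libraries differed from each other more than DTA- replicate 1 from DTA+ replicate 1. Without DTA- replicate 2 the change was -0.83 (edgeR adjusted p = 0.0019), and DESeq2 gave an adjusted p of 0.389. *Col6a4* had 30 and 152 against 4 and 3 UMIs there (-4.09 ± 0.66, edgeR adjusted p = 0.00308), a call that held under its 8 alternatives (log2 change -4.73 to -2.77), weakest without DTA- replicate 2. These were the 2 of 28 collagens called in that cluster, against 2.01% of all genes. *Col23a1*, which is highest in the same cluster, was at 330 and 302 against 375 and 418 CPM and was not called (0.28 ± 0.16, edgeR adjusted p = 0.566).

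*Col6a6*, *Col6a5* and *Col6a4* lie in a row on the minus strand of chromosome 9 (105687809 to 105828160, 105856078 to 105960643 and 105989454 to 106096783, GRCm38). *Col6a4* passed the filter in 3 populations and was called lower in 2, with a smallest change of -1.18. In the Mup17/Epha3 cluster *Col6a6* was called lower (-2.24, edgeR adjusted p = 0.0217) and *Col6a4* was not called (-0.50, 0.614). The RefSeq promoters of both chains are shown because the genes are neighbours and both were called lower in the Sostdc1/Wnt16 cluster. The same motifs are in capitals.
Col6a6 chr9:105828036-105828335 (-): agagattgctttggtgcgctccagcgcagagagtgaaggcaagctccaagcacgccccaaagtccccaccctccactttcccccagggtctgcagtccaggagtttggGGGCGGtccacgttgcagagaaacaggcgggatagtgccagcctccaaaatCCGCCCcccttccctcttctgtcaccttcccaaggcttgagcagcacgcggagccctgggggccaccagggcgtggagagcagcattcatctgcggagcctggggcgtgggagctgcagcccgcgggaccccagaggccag
Col6a4 chr9:106096642-106096941 (-): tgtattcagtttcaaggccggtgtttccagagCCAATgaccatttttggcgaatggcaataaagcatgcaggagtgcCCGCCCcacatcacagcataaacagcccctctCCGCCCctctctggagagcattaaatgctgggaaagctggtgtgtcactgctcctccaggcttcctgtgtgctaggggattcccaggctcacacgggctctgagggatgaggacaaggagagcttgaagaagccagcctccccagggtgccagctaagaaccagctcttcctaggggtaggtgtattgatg

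Both promoters hold the GC box 2 times, and *Col6a4* also the CCAAT box 1 time. Of 32851 promoters of this length, 35.7% hold a GC box, 37.4% a CCAAT box, 13.6% a TATA box and 19% the half-site. Of the 33 collagens with a promoter in the table, the numbers were 21, 12, 5 and 1. A match is a description of letters and not a site.

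The subdermal prepuce-like class needs its make-up beside its values. It joins the Ccn3/Dpt cluster (97, 13, 294 and 659 cells in DTA- replicates 1 and 2 and DTA+ replicates 1 and 2) and the Ly6a/Mt1 cluster (205, 796, 21 and 7 cells), so that different clusters hold most of it in the 2 genotypes. The class had 5 of 29 collagens called, against 3.29% of all genes. The median log2 change of its 29 collagens was -0.49, and that of all genes 0.01.

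Lower in DTA+ were *Col23a1*, *Col6a6*, *Col6a4* and *Col4a5*, and higher was *Col15a1*. *Col23a1* was at 147 and 144 CPM in DTA- and 71.1 and 67.8 CPM in DTA+, tight within genotypes (log2 change -1.12 ± 0.18, edgeR adjusted p = 0.00795). Within the Ccn3/Dpt cluster alone it was at 83.5, 59.0, 73.1 and 68.1 CPM, with overlapping genotypes, where DTA- replicate 2 had 3 UMIs. Within the Ly6a/Mt1 cluster it was at 174 and 145 CPM in DTA-, and the DTA+ libraries had 6 and 2 UMIs. At resolution 0.4 the change was -0.71 (adjusted p = 0.272). Joined with the Iyd/Stmn2 cluster, whose cells were nearly all DTA+, it was -0.19 ± 0.15 (edgeR adjusted p = 0.63), from 153 and 143 against 146 and 128 CPM. With no upper UMI limit it turned to 0.72 (adjusted p = 0.0844); the class named by the same rule then included a cluster of 3023 cells led by *Kera* and *Ptgis*. The difference between the genotypes thus moved with the clusters counted into the class.

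*Col6a6* in the class was at 29.7 and 53.8 against 12.9 and 7.83 CPM (log2 change -2.23 ± 0.37, edgeR adjusted p = 0.00889). With cells thinned it was -1.90 (0.0521), and joined with the Iyd/Stmn2 cluster -3.10 (0.00184). Within the Ccn3/Dpt cluster it had 10, 1, 17 and 24 UMIs, or 21.4, 19.7, 14.1 and 7.94 CPM. *Col6a4* had 13 and 73 UMIs in DTA- and 0 in both DTA+ libraries, at least 23.1-fold lower with a floor of 3 counts over the group (edgeR adjusted p = 0.00499). Of these, 12 and 72 UMIs came from the Ly6a/Mt1 cluster, which had only 21 and 7 DTA+ cells. In the Ccn3/Dpt cluster, which holds most DTA+ cells of the class, DTA- had 1 and 1 UMIs. Joined with the Iyd/Stmn2 cluster it was at 8.32 and 18.6 against 0 and 0 CPM (edgeR adjusted p = 0.00336). *Col4a5*, a basement membrane chain, was at 78.2 and 100 against 43.9 and 29.3 CPM (-1.40 ± 0.25, edgeR adjusted p = 0.013). Joined with the Iyd/Stmn2 cluster its change was -0.81 (0.0797), with no upper UMI limit -0.90 (0.0598) and at resolution 0.4 -1.23 (0.0542), none of them called. It had 27.8, 0, 40.7 and 29.1 CPM in the Ccn3/Dpt cluster, from 13, 0, 49 and 88 UMIs. *Col15a1* was at 34.9 and 34.3 against 110 and 136 CPM (1.79 ± 0.20, edgeR adjusted p = 0.00139, a call that held under its 15 alternatives). Joined with the Iyd/Stmn2 cluster it was 1.30 (0.00575). In the Ccn3/Dpt cluster it was at 74.9, 0, 119 and 138 CPM, where DTA- replicate 2 had 13 cells and 0 UMIs, and in the Ly6a/Mt1 cluster at 17.6 and 34.8 CPM in DTA-.

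Proliferative cells, defined by *Top2a*, *Mki67* and other cell cycle genes, join 3 clusters in unequal shares. Cluster 11 had 351, 458, 150 and 237 cells in DTA- replicates 1 and 2 and DTA+ replicates 1 and 2, cluster 16 had 150, 324, 289 and 162, and cluster 26 had 33, 55, 44 and 37. Cluster 26 is led by the cartilage genes *Col9a1*, *Col9a3* and *Col2a1*, and at resolution 1.2 a cluster with these leading genes was named chondrogenic. The class held 1 call among 29 collagens, against 0.794% of all genes. *Col23a1* was at 61.9 and 91.6 CPM in DTA- and 172 and 137 CPM in DTA+ (log2 change 0.96 ± 0.19, edgeR adjusted p = 0.0201). Both DTA+ libraries were higher. Without DTA+ replicate 1 the change was 0.77 (adjusted p = 0.146). It was not called with cells thinned (0.184) or at resolutions 0.4 and 1.2 (0.164 and 0.148).

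In the remaining tested populations *Col23a1* was not called. Its log2 change was 0.15 in the Irx1/Icam1, 0.26 in the Coch/Meox2, 0.14 in the Thbd/Ptgis, 0.17 in the Dsc3/Wnt10a and 0.08 in the Kera/Nefl cluster. It was 0.31 in distal glans-like, 0.19 in osteogenic-like, 0.05 in periurethra-like and -0.38 in red blood cell-like cells. In chondrogenic-like cells it was -1.08 ± 0.36 (edgeR adjusted p = 0.0797), from 12.6 and 22.04 against 11.4 and 6.53 CPM. *Col6a6* passed the filter in 2 further populations and was not called there, with log2 changes of -2.30 in the Irx1/Icam1 cluster and -2.05 in proliferative cells (edgeR adjusted p = 0.107 and 0.15).

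The Coch/Meox2 cluster had 6 of 25 collagens called, all higher in DTA+, against 8.18% of all genes. *Col12a1* was at 81.3 and 85.0 CPM in DTA- and 178 and 183 CPM in DTA+ (log2 change 1.08 ± 0.15, edgeR adjusted p = 0.000892). *Col19a1*, at its main site, was at 22.4 and 30.01 against 75.9 and 65.4 CPM (1.40 ± 0.22, edgeR adjusted p = 0.00143). Both calls held under their 9 alternatives, and for both the libraries of a genotype lay close together. *Col5a2* was at 202 and 250 against 373 and 357 CPM (0.66, edgeR adjusted p = 0.012), with an adjusted p of 0.0751 without DTA+ replicate 1. *Col24a1*, *Col25a1* and *Col8a1* rested on few UMIs (16 and 24 against 49 and 32, 6 and 4 against 19 and 12, 10 and 4 against 23 and 17). None of these 3 was called without DTA+ replicate 1 (edgeR adjusted p = 0.135, 0.334 and 0.16). *Col24a1* and *Col25a1* were not called without DTA- replicate 1 (0.0891 and 0.0855), *Col25a1* and *Col8a1* without DTA- replicate 2 (0.101 and 0.102), nor *Col25a1* without DTA+ replicate 2 (0.0792).

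The Thbd/Ptgis cluster had 6 of 25 collagens called, 2 higher and 4 lower, against 11.8% of all genes. *Col1a1*, *Col1a2* and *Col3a1*, the main fibril chains, were lower. *Col3a1* was at 2906 and 4651 CPM in DTA- and 2380 and 2247 CPM in DTA+ (log2 change -0.74 ± 0.15, edgeR adjusted p = 0.00153). *Col1a1* had a change of -0.53 and *Col1a2* of -0.63 (edgeR adjusted p = 0.00562 and 0.00325). DTA- replicate 2 was highest for all 3, and without it the changes were -0.38, -0.32 and -0.36 for *Col3a1*, *Col1a1* and *Col1a2* (edgeR adjusted p = 0.0766, 0.135 and 0.103). *Col4a5* was lower (-0.84, 74 and 94 against 25 and 36 UMIs), and *Col19a1* and *Col8a1* were higher (1.48 and 1.47, 12 and 6 against 19 and 13 UMIs and 9 and 10 against 15 and 19 UMIs). None of these 3 was called without DTA+ replicate 1 (edgeR adjusted p = 0.234, 0.571 and 0.188). *Col4a5* and *Col8a1* were not called without DTA+ replicate 2 (0.0954 and 0.215), *Col19a1* and *Col8a1* without DTA- replicate 1 (0.0669 and 0.155), nor *Col4a5* and *Col19a1* without DTA- replicate 2 (0.242 and 0.141). Median UMIs per cell were 4976 and 4121 in DTA- and 2710 and 3256 in DTA+.

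Distal glans-like cells had 2 of 26 collagens called, against 5.27% of all genes. *Col14a1* was at 39.1 and 44.1 CPM in DTA- and 77.9 and 74.9 CPM in DTA+ (log2 change 0.83 ± 0.16, edgeR adjusted p = 0.00847), and with cells thinned the adjusted p was 0.108. *Col12a1* was at 82.6 and 142 against 190 and 187 CPM (0.72 ± 0.19, edgeR adjusted p = 0.0397). Without DTA- replicate 1 it was 0.37 (0.171), and DESeq2 gave an adjusted p of 0.454. In the cluster led by *Tac1* and *Tfap2c* 4 collagens were called against 7.52% of all genes, among them *Col14a1* (1.02, edgeR adjusted p = 0.000767). In the cluster led by *Msx2* and *Htr3b* its change was 0.62 (edgeR adjusted p = 0.227). In the Dsc3/Wnt10a cluster 1 of 23 collagens was called, against 0.263% of all genes. It was *Col12a1*, whose mean over both genotypes was highest there, with 265 and 345 against 650 and 488 CPM (0.93 ± 0.18, edgeR adjusted p = 0.0478). Without DTA+ replicate 1 the change was 0.73 and was not called. With cells thinned it was not called either (edgeR adjusted p = 0.187).

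Over the 19 populations *Col12a1* was called higher in 4 and *Col19a1* in 3. *Col11a1*, *Col5a1*, *Col27a1*, *Col4a1*, *Col4a2*, *Col6a1*, *Col6a2*, *Col6a3*, *Col7a1*, *Col13a1*, *Col16a1* and *Col18a1* were tested in 11 to 18 populations each and called in none, and *Col4a6*, *Col5a3*, *Col17a1* and *Col20a1* were tested in 1 to 5 and called in none. Some of them were called in the tests between populations that follow. The comparisons added with the data in view made other calls. Subdermal prepuce-like cells joined with the Iyd/Stmn2 cluster, nearly all DTA+, gave 305 and 816 cells in DTA- and 923 and 1038 in DTA+. There 8 collagens were called, against 3.85% of all genes. Among them *Col12a1* (log2 change -1.49, edgeR adjusted p = 0.0414), *Col6a2* (-0.77, 0.0344), *Col5a3* (-2.33, 0.00494) and *Col3a1* (-1.01, 0.0182) were lower. *Col6a2* was higher in the distal glans-like cluster led by *Tac1* (0.49, edgeR adjusted p = 0.0192) and *Col16a1* in the Mup17/Epha3 cluster (0.85, 0.04). In these clusters 4 and 6 collagens were called, against 7.52% and 3.93% of all genes.

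Whether a collagen's genotype difference itself differed between 2 populations was tested for the 10 pairs of 5 named mesenchymal populations, with the library as a block. Of 296 collagen tests 65 were called, over 21 collagens. Some of these collagens were called in no tested population by itself. They were *Col6a1* and *Col6a2* (6 pairs each), *Col4a1* (4), *Col4a2* and *Col11a1* (2 each), and *Col5a1* and *Col18a1* (1 each). With the periurethra-like cells as 1 of the pair, 9 of 31 collagens were called against the chondrogenic-like (3.31% of all genes), 5 of 31 against the distal glans-like (1.9%), 10 of 30 against the subdermal prepuce-like (3%) and 7 of 30 against the osteogenic-like cells (1.44%). Chondrogenic-like cells gave 6 of 28 against distal glans-like (1.59%), 8 of 31 against subdermal prepuce-like (3.68%) and 6 of 28 against osteogenic-like cells (1.61%). Distal glans-like cells gave 8 of 30 against subdermal prepuce-like (2.3%) and 2 of 27 against osteogenic-like cells (0.334%), and subdermal prepuce-like against osteogenic-like cells gave 4 of 30 (1.92%). These pairs share libraries and populations.

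The change of *Col8a1* was larger in periurethra-like than in distal glans-like cells by 3.19 ± 0.19 (log2, SE; edgeR adjusted p = 4.13e-06) and than in chondrogenic-like cells by 1.84 ± 0.26 (0.000359). *Col14a1* changed by 2.08 ± 0.22 more in periurethra-like than in chondrogenic-like cells (edgeR adjusted p = 1.27e-05), and *Col26a1* by 1.72 ± 0.23 (0.000201). *Col12a1* differed in 8 pairs, with a change larger in osteogenic-like than in periurethra-like cells by 1.27 ± 0.21 (edgeR adjusted p = 0.00961). This last call was not kept in 2 of its 7 alternatives (largest adjusted p 0.228).

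The proteins that make, cross-link and bind collagen were followed as a list of 38 genes, all measured. Over all cells 37 passed the filter and edgeR called 0, with a median log2 change of -0.24 against -0.00274 for all genes tested. In chondrogenic-like cells 1 of 31 was higher and 5 lower, where 7.52% of all genes were called. The collagen receptor integrin *Itga2* was higher (1.93, edgeR adjusted p = 0.00974), and the procollagen cleavage enhancer *Pcolce2* (-2.62, 0.0197), the prolyl hydroxylase *P4ha3* (-1.03, 0.0145) and the receptor *Itga11* (-0.94, 0.0153) were lower. In the Thbd/Ptgis cluster, where type I and III chains were lower, 1 of 27 was higher and 3 lower, a share near the 11.8% of all genes called there. The collagen glycosyltransferase *Colgalt2* was at 22.6 and 37.2 CPM in DTA- and 2.51 and 3.32 CPM in DTA+ (-3.32 ± 0.43, edgeR adjusted p = 1.53e-05). The collagen chaperone *Serpinh1* (-0.68, 0.000933) and the isomerase *Ppib* (-0.46, 0.0209) were lower and the lysyl hydroxylase *Plod2* higher (0.90, 0.0483).

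In the Coch/Meox2 cluster, where 6 collagens were higher, 4 of 28 of these genes were higher and 1 lower, where 8.18% of all genes were called. The cross-linking enzyme *Lox* was at 110 and 101 against 199 and 209 CPM (0.91 ± 0.15, edgeR adjusted p = 0.0022), the propeptidase *Adamts2* (0.92, 0.0188) and *Plod2* (1.09, 0.0235) were higher, and *P4ha2* was lower (-0.86, 0.0464). *Lox* was also higher in distal glans-like cells (0.76, edgeR adjusted p = 0.0337), 1 of 28 genes called there against 5.27% of all genes. It was the 1 gene of 28 called in the Irx1/Icam1 cluster (0.948% of all genes), where it was lower (-1.05, edgeR adjusted p = 0.0239); the difference between these populations was not tested. Single calls of the list, where 2.01%, 3.69% and 3.29% of all genes were called, were the receptors *Itga11* in the Sostdc1/Wnt16 cluster (-2.50, edgeR adjusted p = 0.0118) and *Itga1* in periurethra-like cells (-1.90, 0.000969), and the hydroxylase *P3h2* in subdermal prepuce-like cells (1.46, 0.0341).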

How the data were processed

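Single-cell mRNA libraries of 4 samples (2 DTA-, 2 DTA+) were analysed. Per the labels and methods, the authors prepared 10x 3' libraries, pooled them on 1 flow cell and aligned the reads to mm10. The file headers and submitters' processing notes give Cell Ranger 4.0.0. The study's methods instead name Cell Ranger v3, with the *tdTomato* sequence added to mm10. The deposited matrices hold raw UMI counts, 1 value for each gene in each cell, without normalization. Groups came from the sample titles, and E16.5 from the study's methods.

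The UMI total of a cell had to lie above 1000 and below 7500, and its share of mitochondrial, *Hba* and *Hbb* genes could not exceed 25%, 25% and 50%. These limits decide which cells enter a population. Seurat 5.3.0 (R 4.3.3) clustered them on 2000 variable genes without the collagens, 30 principal components and resolution 0.8. Naming a cluster took 3 or more class markers, each seen in 5% of its cells with a log2 fold of 0.8 or more (10 CPM added), of which 1 stood among its 25 leading genes, while no competing class had more among the first 10. The partition changed slightly with numerical rounding, so 1 fixed setting was used and 2 other seeds were tried after the data were seen. Doublets were kept; the automatic threshold of Scrublet (scanpy 1.11.5) marked 0 or 1 cell per library and so did not work, and an alternative left out the highest scores at 0.8% per 1000 cells.

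For each population the UMIs of a library were added up, and the sums went into edgeR 4.0.16's quasi-likelihood test (TMM scaling, filterByExpr, genotype as the single term), with Benjamini-Hochberg adjustment over all genes of a fit. The SE is the log2 change divided by the square root of F. Interactions had the library as a block. DESeq2 1.42.0 was an alternative, and adjusted p-values it gave as missing stay so. Further alternatives blocked on replicate number, dropped the low-count filter or left out each library; others were thinning to 1000 UMIs, other UMI limits, resolutions 0.4 and 1.2, and the collagens left in the clustering. Joined and split populations were added with the data in view. Clusters are called by some of their leading genes, and other leading genes are not reported here. The steps were tested on simulated counts. Named are all called collagens, each collagen of at least 10 CPM at its highest site, *Col23a1* and *Col6a6* everywhere, and up to 3 risen and 3 fallen genes of the biosynthesis list per comparison. The members, lists and tests were chosen with earlier results of these data known. Promoters are RefSeq's (GRCm38.p6), found for 33 collagens, and positions GENCODE's (GRCm38). Python 3.11.15 and matplotlib 3.10.9 drew the figures.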

Additional observations from a re-analysis of the deposited data

Results flagged for a closer look

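The 27 comparisons listed here, over 9 collagens, are a flagged part of the 65 interaction calls over 21 collagens. In each, the genotype difference of a collagen differed between 2 of 5 named mesenchymal populations. The test was edgeR's interaction test with the library as a block, which called 0.334% to 3.68% of all genes per pair. Each value is the log2 change (DTA+ over DTA-) in the first population minus that in the second. The causes were not tested.

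*Col8a1* differed by 3.19 between periurethra-like and distal glans-like, 4.40 between periurethra-like and subdermal prepuce-like, 1.43 between chondrogenic-like and distal glans-like, 2.73 between chondrogenic-like and subdermal prepuce-like and -2.81 between subdermal prepuce-like and osteogenic-like cells. *Col8a2* differed by 1.02 between periurethra-like and chondrogenic-like cells.

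*Col12a1*, on the fibril surface, differed by -0.86 between chondrogenic-like and distal glans-like, -1.29 between chondrogenic-like and osteogenic-like and 1.97 between distal glans-like and subdermal prepuce-like cells. It differed by -0.86 between periurethra-like and distal glans-like, -1.27 between periurethra-like and osteogenic-like and -2.42 between subdermal prepuce-like and osteogenic-like cells. *Col14a1* differed by -1.54 between chondrogenic-like and distal glans-like and by 2.08 between periurethra-like and chondrogenic-like cells.

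*Col15a1* differed by -2.42 between distal glans-like and subdermal prepuce-like, 2.05 between periurethra-like and distal glans-like, 2.19 between periurethra-like and osteogenic-like and 2.53 between subdermal prepuce-like and osteogenic-like cells. *Col26a1* differed by -0.89 between chondrogenic-like and distal glans-like, 1.72 between periurethra-like and chondrogenic-like, 1.24 between periurethra-like and osteogenic-like and 1.39 between periurethra-like and subdermal prepuce-like cells.

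*Col23a1* differed in comparisons with subdermal prepuce-like cells, by 1.40 from distal glans-like (first) and 1.16 from periurethra-like cells (first), and by -1.31 between subdermal prepuce-like and osteogenic-like cells. All differences from subdermal prepuce-like cells rest on a class that is mostly 1 cluster in DTA- and another in DTA+, whose own *Col23a1* change was -0.19 when joined with the Iyd/Stmn2 cluster and 0.72 with no upper UMI limit. *Col4a5* differed by 1.64 between distal glans-like and subdermal prepuce-like cells, and *Col24a1* by 1.69 between chondrogenic-like and osteogenic-like cells. Without DTA- replicate 2, 15 of the 27 were called, and without a block for the library 12.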

How the results depend on the processing

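Over the 35 calls, 422 alternatives were computed: 327 kept the call, 94 kept the direction without the call and 1 reversed. *Col23a1* in subdermal prepuce-like cells turned to 0.72 with no upper UMI limit. DESeq2 kept 21 of 35 calls, and leaving out DTA- replicate 2 kept 19 of 34.

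Over all cells the count of collagens called, 0 by edgeR, was 5 with DESeq2, 5 with no filter on low counts, 2 with cells thinned and 1 to 4 with a library left out. In the named populations the count of 20 became 36 with no filter on low counts and 22 to 48 with a library left out. The number of interaction calls, 65, was 13 without a block for the library and 33 to 77 with a library left out. The shares of all genes called under these settings are not given here, so these counts cannot tell collagens from genes in general. The cause was not tested.

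The deviations of DTA- replicate 1 and DTA+ replicate 1 from their group means correlated at -0.234. With 2 libraries per genotype the deviations within a group mirror each other, so this value cannot decide whether libraries were paired. With the replicate number as a block, 4 collagens were called over all cells, and 33 of the 35 population calls were kept (not *Col25a1* in the Coch/Meox2 cluster, adjusted p = 0.0546, nor *Col4a5* in subdermal prepuce-like cells, 0.0597). The share of all genes called with this block is not given here, so the 4 cannot tell collagens from genes in general. Of 2 other clustering seeds, chosen after the data were seen, one kept 20 of 20 calls in named populations and the other 16 of 20. Few cells per library limit the rarer populations.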
